A study of Arabidopsis thaliana with 24 samples.

Results

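Leaves and roots of wild type Arabidopsis thaliana grown with Fe were compared, 3 arrays of leaves against 3 arrays of roots, which are 6 of the 24 arrays of the series. The samples were chosen by their titles and paired by biological repetition. The experiment was run in 3 consecutive weeks, and repetitions 1 to 3 are called weeks 1 to 3 here. The wild type leaves + Fe and the wild type roots + Fe both came from plants of ecotype Columbia that had been grown in hydroponic culture in diluted Hoagland solution with 10 µM FeNa-EDTA until harvest at an age of 5 weeks. The leaf samples were rosette leaves 3 and 4, and the root samples were roots from the hydroponic solution, so that whole organs with all of their cell types were measured. No source used here says how many plants made up a sample. The other 18 arrays held leaves and roots of wild type plants kept for the last 7 days without Fe (0 µM FeNa-EDTA, - Fe), and of the quadruple mutant nas4x-1, which carries T-DNA insertions in all 4 NICOTIANAMINE SYNTHASE genes, at + Fe and at - Fe. They serve below as a second look at the organ difference in arrays that the main comparison did not use.

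A rosette leaf is the main site of photosynthesis, and its mesophyll cells are filled with chloroplasts whose protein complexes are built from subunits encoded partly in the nucleus and partly in the plastid genome. A root is heterotrophic, its plastids are not green, and it takes up water, nitrate and metals through root hairs and the outer cell layers. Fe enters Arabidopsis roots after reduction at the surface through the transporter IRT1, travels in the xylem with citrate and moves between cells bound to nicotianamine, while most leaf Fe is used in chloroplasts or stored in ferritin.

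Signals of Affymetrix ATH1 arrays are intensities on a linear scale that the authors normalized by quantiles over all 24 arrays, so that every array held the same distribution with a median near 38.1 and a highest value of 7304. An offset of 16 was added before log2 was taken, and all log2 differences below are those of signal + 16, leaves minus roots, which understates the change of dim genes. A probe set below 16 is called dim here, since no detection calls were used, and 5610 of 22746 probe sets were dim on all 6 arrays. Over all probe sets, arrays of leaves correlated with each other with r from 0.9600 to 0.9780, arrays of roots with r from 0.9468 to 0.9862, and arrays of different organs with r from 0.6434 to 0.6789. In both organs the array of week 1 stood apart from those of weeks 2 and 3, with r of 0.9608 and 0.9600 beside 0.9780 between weeks 2 and 3 in leaves, and 0.9497 and 0.9468 beside 0.9862 in roots. Among the 14571 probe sets with a mean root signal of at least 16, the week 1 array was the highest root array for 42.0% and the lowest for 41.0%.

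The labels of the organs held against their markers. The summed signal of 30 nuclear photosystem and thylakoid genes lay between 47117 and 49086 on the leaf arrays and between 1300.1 and 1440.0 on the root arrays, and that of 26 genes of root growth and root hairs lay between 1672 and 2217 on the leaf arrays and between 3170.1 and 5039.7 on the root arrays. Of 15 markers of flowers, pollen and seeds, 11 were dim on all leaf arrays and 13 on all root arrays, and their summed signal was 100.8 to 135.5 in leaves and 233.6 to 373.7 in roots. Among them EMS1 (AT5G07280, 0.62) was called higher in leaves, and PLIM2b (AT1G01780, -1.84), ACT11 (AT3G12110, -1.76) and BBM (AT5G17430, -0.40) were called higher in roots. With arrays shifted by 5 common reference genes, 7 of the 15 were called higher in leaves and 2 in roots. The flower meristem gene UFO (AT1G30950) had signals of 1.18, 0.85 and 3.3 in leaves and 0.392, 1.47 and 0.746 in roots. Since whole organs were extracted, a larger share of cells of a type and more RNA per cell of that type cannot be told apart in any of these values.

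Of 22746 probe sets, 9650 or 42.4% passed limma's moderated test with harvest week as a block at an adjusted p under 0.05. Of these, 4255 (18.7% of all probe sets) were higher in leaves and 5395 (23.7%) were higher in roots. All counts of list and family members given below are to be read beside these shares. The median difference of all probe sets was -0.01. An exact permutation of 3 arrays against 3 cannot reach a two-sided p below 0.1, nor one of 3 pairs below 0.25, so that all p-values given here come from limma's fit across all probe sets. Without week 1, 4685 probe sets were higher in leaves and 5954 in roots. In another setting the error variance was the larger of a probe set's own variance and an average over probe sets of similar signal. That rule was taken from the methods of the study. Their removal of the highest variances, their Bayesian error model and the week block were left out. With this setting, 1810 were called higher in leaves and 1493 in roots. Calls of single genes lost under this setting alone are not marked below. Calls higher in leaves were fewer in all but more frequent among the large differences: at a log2 difference of at least 1 there were 2873 higher in leaves and 3071 higher in roots, at 2 there were 1497 and 1071, at 4 there were 342 and 179, and at 6 there were 59 and 26. The 3 leaf arrays all lay above the 3 root arrays for 5476 probe sets (24.1%), and all lay below them for 6401 (28.1%), together 52.2% of all. Counted as genes, of 13547 genes with a probe set of their own, 2284 were called higher in leaves and 2957 higher in roots, and no gene among the 148 with several probe sets had probe sets called in both directions.

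The split between both directions rested on the assumption of the normalization that both organs have the same distribution of signals. When each array was shifted so that the mean of 5 common reference genes was equal on all arrays, the median of all probe sets moved from -0.01 to 0.25, and 8450 probe sets were higher in leaves and 4008 in roots, so that 67.8% instead of 44.1% of the calls were higher in leaves. None of the reference genes was called, and MON1 was called higher in leaves after the shift. PEX4 (-0.31), AT4G34270 (-0.39), MON1 (0.27), the glyceraldehyde-3-phosphate dehydrogenase gene GAPC2 (-0.79, adjusted p = 0.0621) and AP2M (-0.07) are those 5 genes, so 4 of them leaned towards roots. The sign of a difference within 0.3 of 0 can therefore depend on the scaling.

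**Figure D1:**
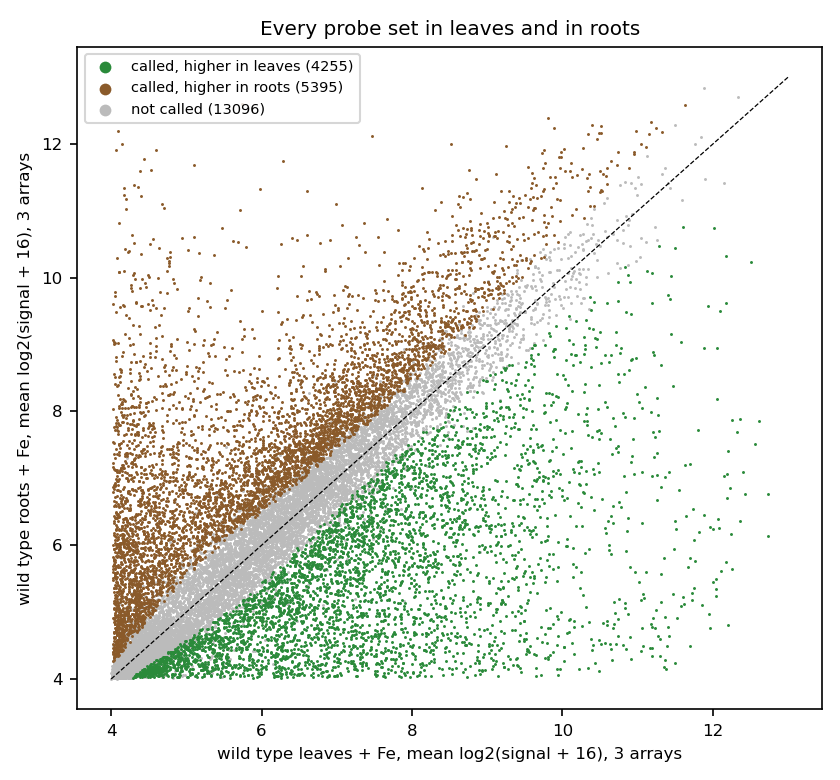
Mean log2(signal + 16) of every probe set over the 3 arrays of wild type leaves + Fe (x axis) and over the 3 arrays of wild type roots + Fe (y axis), coloured by call at an adjusted p under 0.05. Of 22746 probe sets, 4255 lie on the leaf side and 5395 on the root side as called, and far from the dashed line of equal signal the leaf side holds more probe sets, with 342 against 179 calls at a log2 difference of at least 4.

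Among the 12 genes with the largest differences in favour of leaves, those with names were mostly genes of photosynthesis and photorespiration. ECS1 (AT1G31580), a small cell wall protein, had signals of 4346, 5297 and 4509 on the leaf arrays of weeks 1 to 3 and 19.3, 10.1 and 7.51 on the root arrays, a log2 difference of 7.4 (SE 0.19, adjusted p = 1.95e-05). COR15A (AT2G42540), a chloroplast protein known to protect membranes during freezing, had 2675, 3904 and 3466 in leaves and 4.01, 10.2 and 5.47 in roots (log2 difference 7.21, SE 0.13, adjusted p = 1.93e-05). For both genes every leaf array was bright and every root array was dim, apart from 1 root array of ECS1 just above 16. PRK (AT1G32060), the phosphoribulokinase that regenerates the acceptor of CO2 in the Calvin cycle, had 3061, 2527 and 2575 in leaves and 7.4, 9.42 and 10.5 in roots (log2 difference 6.76, SE 0.15, adjusted p = 1.94e-05). PSAE-1 (AT4G28750), a stromal subunit of photosystem I, had 3865, 4366 and 4366 in leaves and 15.5, 22.3 and 39.5 in roots (log2 difference 6.7, SE 0.18, adjusted p = 1.95e-05). LHCB4.2 (AT3G08940), an antenna protein of photosystem II, differed by 6.55, HPR (AT1G68010), the peroxisomal hydroxypyruvate reductase of photorespiration, by 6.47, and PIFI (AT3G15840), a chloroplast protein of NDH-dependent electron flow, by 6.7. The remaining 5 were known here only by their loci, namely AT1G23130 (7.22), AT1G09310 (7.07), AT2G41090 (6.7), AT2G25510 (6.61) and AT3G62550 (6.57). All 12 were higher in leaves in each of the 3 weeks.

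The 12 genes with the largest differences in favour of roots reached up to -8.11 for AT4G33720, which had 0.925, 0.988 and 1.19 in leaves and 3630.0, 5020.0 and 5644 in roots (SE 0.17, adjusted p = 1.93e-05). It was dim on every leaf array and among the brightest probe sets on every root array. PYK10 (AT3G09260), a beta-glucosidase that is the main protein of the ER bodies of Arabidopsis roots, had 6.55, 1.28 and 3.56 in leaves and 1933, 2781 and 3556 in roots (log2 difference -7.09, SE 0.24, adjusted p = 3.22e-05). GAD1 (AT5G17330), a glutamate decarboxylase that makes gamma-aminobutyrate, had 3.01, 4.1 and 2.97 in leaves and 1570.0, 1715 and 1456 in roots (log2 difference -6.36, SE 0.13, adjusted p = 1.93e-05). For both genes the leaf arrays were dim throughout, and the root arrays of the 3 weeks lay closer together for GAD1 than for PYK10. The other 9 were known here only by their loci, with differences from -7.85 (AT3G01190) and -7.84 (AT4G15390) over -7.33 (AT4G22212), -6.99 (AT5G64100), -6.98 (AT1G19530), -6.84 (AT2G21045), -6.82 (AT5G19890) and -6.72 (AT4G39675) to -6.34 (AT5G26130). AT5G26130 had 12.6, 11.0 and 6.95 in leaves and 5505, 842 and 1967 in roots, the widest spread between weeks among the root arrays of these 12 genes.

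**Figure D2:**
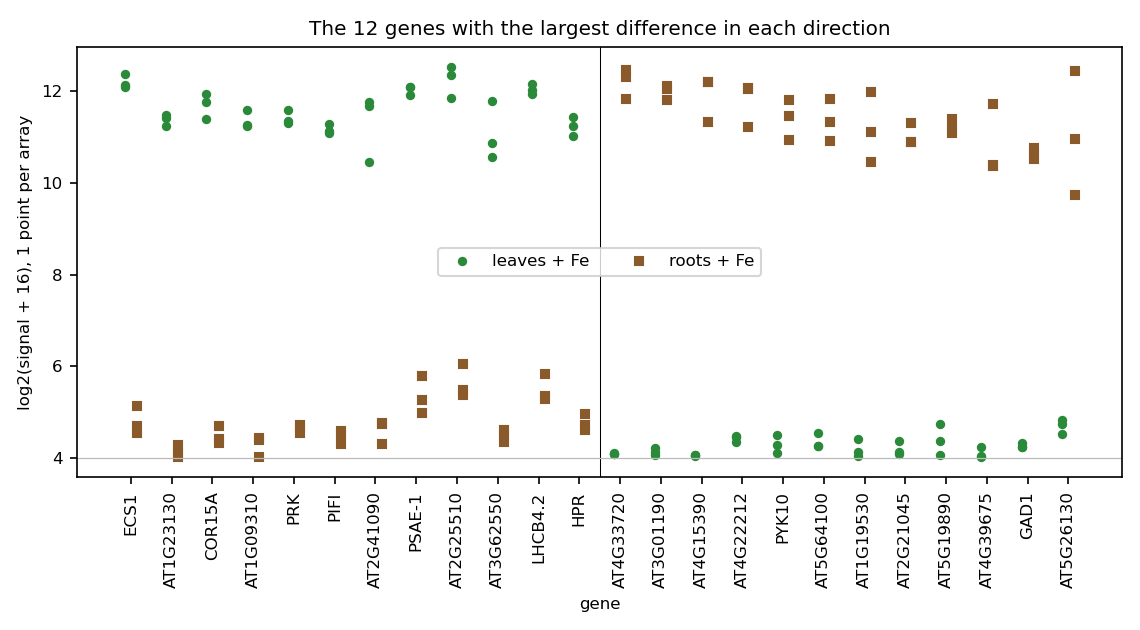
log2(signal + 16) on each of the 3 arrays of wild type leaves + Fe and the 3 arrays of wild type roots + Fe for the 12 genes with the largest difference in each direction, 1 point per array, with a line at 4, the value of a signal of 0. Leaf and root arrays do not overlap for any of the 24 genes. The organ with the lower signal lies nearer the line for AT4G33720, with leaf signals of 0.925, 0.988 and 1.19, than for AT2G25510, with root signals of 50.6, 29.1 and 25.6.

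Most nuclear genes of photosynthesis were higher in leaves. Of 30 measured genes of the photosystems, electron transport and the thylakoid, 26 were higher in leaves and 1 was higher in roots, with a median of 4.82 against -0.01 over all probe sets. PSBY (AT1G67740) and PSBW (AT2G30570), small subunits of photosystem II, led the list after PIFI, PSAE-1 and LHCB4.2. PSBY had 3609, 3176 and 3354 in leaves and 23.1, 23.5 and 22.9 in roots (log2 difference 6.44, SE 0.13, adjusted p = 1.93e-05), and PSBW had 2949.6, 2869 and 2647 in leaves and 14.9, 29.8 and 24.4 in roots (log2 difference 6.2, SE 0.17, adjusted p = 2.06e-05). The gene called higher in roots was ATPC2 (AT1G15700), the second gene of the gamma subunit of the chloroplast ATP synthase, which had 17.2, 36.3 and 29.0 in leaves and 75.6, 55.4 and 58.9 in roots (log2 difference -0.88, SE 0.25, adjusted p = 0.0336). Its call was lost under the shift by reference genes and without the arrays of week 2 or of week 3, while its paralogue ATPC1 (AT4G04640) was higher in leaves by 5.19. The thylakoid curvature genes CURT1A (5.2) and CURT1C (5.78) were higher in leaves, and CURT1D had -0.18 (adjusted p = 0.353).

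Of 9 genes of carbon fixation and photorespiration, 8 were higher in leaves, with a median of 5.39. SBPASE (AT3G55800), the sedoheptulose-bisphosphatase of the Calvin cycle, had 1854, 1408 and 1876 in leaves and 9.1, 9.61 and 8.56 in roots (log2 difference 6.09, SE 0.16, adjusted p = 1.95e-05). RCA (AT2G39730), the activase of Rubisco, had 4366, 3865 and 3998 in leaves and 103, 54.3 and 35.6 in roots (log2 difference 5.76, SE 0.23, adjusted p = 4.96e-05). NADP-MDH (AT5G58330), the chloroplast malate dehydrogenase that exports reducing power, differed by 5.39 (adjusted p = 3.47e-05). No root array reached a leaf array for these 3 genes, and SBPASE and NADP-MDH were dim in roots.

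Of 14 genes of chlorophyll and haem synthesis and of chlorophyll b breakdown, 10 were higher in leaves and none higher in roots, with a median of 2.60. PORB (AT4G27440), a protochlorophyllide oxidoreductase, had 2647, 2336 and 1483 in leaves and 8.36, 26.8 and 30.6 in roots (log2 difference 5.85, SE 0.33, adjusted p = 0.000132). CHLI2 (AT5G45930), a subunit of magnesium chelatase, differed by 3.32, and the chlorophyll b reductase genes NYC1 (AT4G13250) and NOL (AT5G04900) by 3.89 and 3.02. The early steps that serve haem as well as chlorophyll differed less: GSA1 had 0.99 and HEMB1 1.22, both called, and the glutamyl-tRNA reductase genes HEMA2 (-0.37) and HEMA3 (0.13) were not called.

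All 69 measured plastid-encoded genes had positive differences, and 68 were called higher in leaves. The counts were 7 of 7 for photosystem I (median 3.65), 15 of 15 for photosystem II (3.60), 13 of 13 for the cytochrome b6f complex, the ATP synthase and rbcL (2.62), 9 of 10 for the NDH complex (3.49) and 24 of 24 for plastid gene expression and other functions (1.98). psaA, a core subunit of photosystem I, had 2843, 2101 and 2663 in leaves and 36.3, 67.0 and 8.38 in roots (log2 difference 5.74, SE 0.39, adjusted p = 0.000237). psbA, the D1 protein of photosystem II, had 2049, 1222 and 1421 in leaves and 22.7, 10.7 and 7.91 in roots (log2 difference 5.73, SE 0.14, adjusted p = 1.94e-05). ndhJ had 553, 497 and 519.6 in leaves and 5.92, 0.883 and 3.67 in roots, a difference of 4.8.

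Many plastid transcripts were nevertheless measured well above 16 in roots. psaB had 4436, 4121 and 4181 in leaves and 234, 301 and 294 in roots (log2 difference 3.87, SE 0.19, adjusted p = 7.76e-05), and the ATP synthase gene atpA had 3081, 3440.5 and 2938 in leaves and 166, 171 and 77.5 in roots (log2 difference 4.43, SE 0.22, adjusted p = 9.09e-05). The cytochrome c maturation gene ccsA (3.87) and the ribosomal protein gene rps4 (3.3) had the largest differences among the genes of plastid gene expression and other functions, and the RNA polymerase subunit gene rpoC1 differed by 2.78. The only plastid gene not called was ndhF, with 0.50, 0.592 and 11.8 in leaves and 1.55, 2.34 and 0.679 in roots (0.17, adjusted p = 0.520).

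Mitochondrion-encoded genes did not share this pattern. Of 14 measured, none was higher in leaves and 1 was higher in roots, and the median was 0.15. Under the shift by reference genes, 6 were higher in leaves and 1 in roots, with a median of 0.41. ccb382, a gene of cytochrome c maturation, had 74.6, 63.4 and 72.0 in leaves and 235, 138 and 155 in roots (log2 difference -1.13, SE 0.17, adjusted p = 0.00386). For all 6 mitochondrial genes with a mean root signal of at least 16, the root array of week 1 was the highest, and without week 1 there were 4 calls in leaves and 1 in roots. Of the 14, 6 were dim on all leaf arrays and 6 on all root arrays. The labelling kit primes on poly(A) tails, which few transcripts of plastids and mitochondria carry, so the values of organelle genes are not levels of all their RNA.

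**Figure D3:**
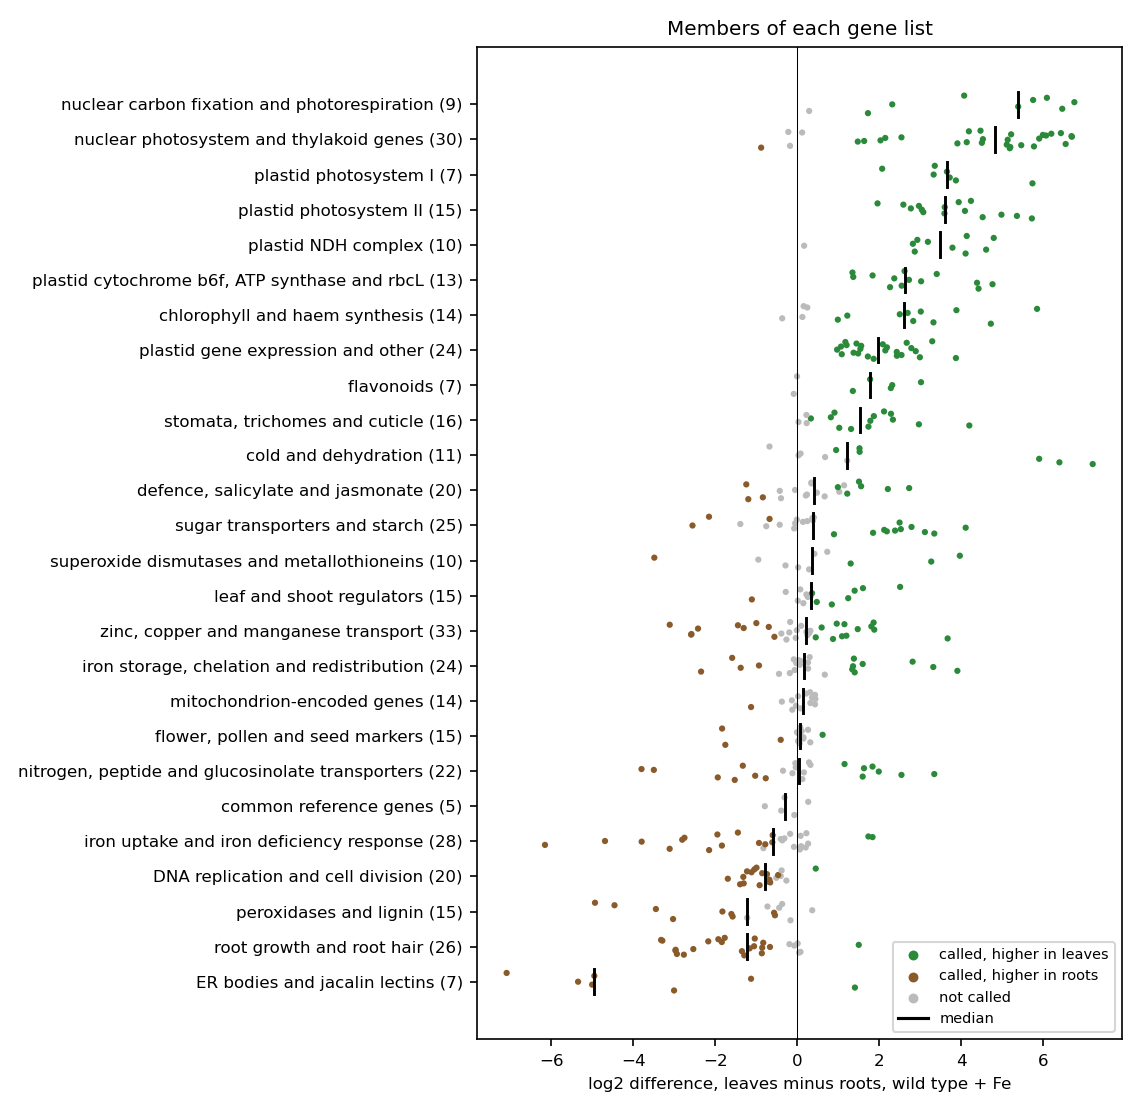
log2 difference (x axis, leaves minus roots, wild type + Fe) of each measured member of the 26 gene lists (1 line per list, number of members in brackets), with called members marked by colour. The lists of photosynthesis lie on the leaf side, with medians from 1.98 to 5.39, ER body and jacalin genes on the root side with a median of -4.95, and the metal lists spread to both sides.

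Genes of the leaf surface were higher in leaves. Of 16 genes of stomata, trichomes and cuticle, 13 were higher in leaves and none in roots (median 1.53), and 14 were dim on all root arrays. CER26 (AT4G13840), which acts in the elongation of wax precursors, had 380.1, 435 and 399.7 in leaves and 9.1, 6.45 and 5.2 in roots (log2 difference 4.2, SE 0.16, adjusted p = 4.04e-05). CHX20 (AT3G53720), a cation exchanger of guard cells, differed by 2.97, STOMAGEN (AT4G12970), a peptide that raises the density of stomata, by 2.29, the trichome regulator GIS (AT3G58070) by 2.34 and the wax ester synthase gene WSD1 (AT5G37300) by 2.12. These 4 genes were dim on all root arrays.

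Of 15 leaf and shoot regulators, 7 were higher in leaves and 1 was higher in roots (median 0.34), beside 18.7% and 23.7% of all probe sets. On all root arrays, 11 of the regulators were dim. Under the shift by reference genes, 11 were higher in leaves and 1 in roots (median 0.60). The YABBY genes YAB5 (AT2G26580) and YAB3 (AT4G00180), which act on the lower side of leaves, differed by 2.51 and 1.6. YAB5 had 85.1, 97.8 and 75.1 in leaves and 3.8, 0.512 and 1.31 in roots (SE 0.18, adjusted p = 0.000303). TCP15 (AT1G69690) differed by 1.4, NGA1 (AT2G46870) by 1.24, which was not called without week 3, and the GATA factor gene CGA1 (AT4G26150) by 0.84. LEP (AT5G13910), a factor named after its effect on petioles, ran the other way with 34.6, 15.5 and 24.8 in leaves and 55.9, 83.1 and 75.6 in roots (log2 difference -1.11, SE 0.26, adjusted p = 0.0187), a call lost without week 2 or without week 3.

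Root growth and root hair genes were mostly higher in roots. Of 26 measured, 1 was higher in leaves and 20 were higher in roots, with a median of -1.23, and 12 of the 26 were dim on all leaf arrays. The xyloglucan endotransglucosylase genes XTH19 (AT4G30290) and XTH18 (AT4G30280), whose products remodel cell walls, differed by -3.32 and -3.29. XTH18 had 0.692, 0.721 and 2.35 in leaves and 72.5, 199.7 and 237 in roots (SE 0.31, adjusted p = 0.000753). The root hair expansin genes EXPA7 (AT1G12560) and EXPA18 (AT1G62980) both differed by -2.97, and EXPA7 had 1.91, 0.592 and 5.77 in leaves and 79.5, 199 and 135 in roots (SE 0.28, adjusted p = 0.000747). In all 4 genes the root array of week 1 was the lowest root array, as it was for 17 of the 23 members with a mean root signal of at least 16, and it still lay above every leaf array. The MADS-box gene AGL42 (AT5G62165) differed by -2.94, the receptor kinase gene GSO1 by -2.54 and the reactive oxygen regulator UPB1 by -2.17. The 1 member higher in leaves was LPR2 (AT1G71040), a multicopper oxidase known from the response of the root tip to phosphate, with 267, 302 and 383 in leaves and 101, 91.2 and 109.9 in roots (log2 difference 1.5, SE 0.15, adjusted p = 0.000793), while its paralogue LPR1 had -0.07 (adjusted p = 0.740).

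ER bodies are compartments of the endoplasmic reticulum that store beta-glucosidases, and jacalin lectins are found with them. Of 7 genes, 6 were higher in roots (median -4.95), PYK10 among them. NAI2 (AT3G15950), a protein needed to form ER bodies, had 11.4, 5.22 and 8.14 in leaves and 817, 620.0 and 773 in roots (log2 difference -4.95, SE 0.13, adjusted p = 2.01e-05). JAL34 (AT3G16460) had 49.5, 50.0 and 41.8 in leaves and 2567, 2636 and 2461 in roots (log2 difference -5.35, SE 0.13, adjusted p = 1.94e-05), and JAL33 and JAL22 differed by -5.01 and -3.01. JAL23 (AT2G39330) was the exception, with 16.4, 33.1 and 75.4 in leaves and 2.44, 4.1 and 5.03 in roots (log2 difference 1.41, SE 0.27, adjusted p = 0.00944), and all its root arrays were dim.

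Of 15 genes of peroxidases and lignin, none was higher in leaves and 9 were higher in roots, with a median of -1.22. Under the shift by reference genes, 1 was higher in leaves and 7 in roots. Prx37 (AT4G08770) had 1.18, 1.45 and 0.333 in leaves and 261, 704 and 691 in roots (log2 difference -4.94, SE 0.31, adjusted p = 0.000194), and PRX72 (AT5G66390), a peroxidase of lignin formation, differed by -4.46. BGLU46 (AT1G61820), a glucosidase of monolignol glucosides, differed by -3.03. PAL2 (AT3G53260), a phenylalanine ammonia-lyase at the entry of the phenylpropanoid pathway, had 239.7, 175 and 244 in leaves and 722, 895 and 826 in roots (log2 difference -1.83, SE 0.19, adjusted p = 0.000960), so that it was well measured in both organs.

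Transporters of sugars and genes of starch and sucrose divided between the organs. Of 25, 11 were higher in leaves and 3 higher in roots (median 0.38), beside 18.7% and 23.7% of all probe sets. Under the shift by reference genes, 15 were higher in leaves and 2 in roots (median 0.64). SWEET11 (AT3G48740), which releases sucrose for loading of the phloem, had 971, 627 and 759.5 in leaves and 45.5, 20.2 and 26.8 in roots (log2 difference 4.11, SE 0.13, adjusted p = 2.88e-05). APL3 (AT4G39210), a large subunit of the starch enzyme ADP-glucose pyrophosphorylase, differed by 3.35, ATSPS4F (AT4G10120), a sucrose phosphate synthase, by 3.12, and SWEET13 and SWEET1 by 2.79 and 2.53. SWEET16 (AT3G16690), a transporter of the vacuole membrane, ran the other way, with 20.7, 18.5 and 35.4 in leaves and 199, 200.0 and 270.2 in roots (log2 difference -2.56, SE 0.15, adjusted p = 0.000135). cwINV6 (AT5G11920, -2.15) and TMT1 (AT1G20840, -0.68), a monosaccharide transporter of the vacuole, were higher in roots as well. TMT1 was lost under the shift by reference genes, over all 24 arrays and without week 2 or week 3.

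Of 22 transporters of nitrate, peptides and glucosinolates, 7 were higher in leaves and 7 in roots (median 0.04), beside 18.7% and 23.7% of all probe sets. Under the shift by reference genes, 10 were higher in leaves and 7 in roots (median 0.30). NRT3.1 (AT5G50200), the partner protein of high-affinity nitrate transporters, had 40.5, 70.3 and 69.4 in leaves and 1410.3, 815 and 939 in roots (log2 difference -3.8, SE 0.29, adjusted p = 0.000344). NRT2.5 (AT1G12940), such a transporter, had 4.1, 2.34 and 11.7 in leaves and 11.3, 882 and 588 in roots (log2 difference -3.5, SE 0.95, adjusted p = 0.0316). Its root array of week 1 lay below the highest leaf array, and it passed neither without week 2 or week 3 nor without the block. Higher in leaves were the glucosinolate transporter gene GTR1 (AT3G47960, 1.99), the oligopeptide transporter genes OPT3 (AT4G16370, 1.84), known for Fe signalling in the phloem, and OPT1 (AT5G55930, 1.63), and AT3G21670 (3.35), which was lost without week 3.

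Genes of Fe uptake and of the Fe deficiency response were more often called higher in roots than in leaves in these plants supplied with Fe. Of 28 measured, 2 were higher in leaves and 14 in roots, beside 18.7% and 23.7% of all probe sets, and 12 were not called. The median was -0.60, and 11 were dim on all leaf arrays. Under the shift by reference genes, 3 were higher in leaves and 11 in roots (median -0.34). IRT1 (AT4G19690), the Fe transporter of the root surface, had 0.925, 0.381 and 0.783 in leaves and 1262, 222 and 249 in roots (log2 difference -4.69, SE 0.49, adjusted p = 0.00101). F6'H1 (AT3G13610), the enzyme at the start of synthesis of the coumarins that roots secrete to mobilise Fe, had 1.76, 0.592 and 6.95 in leaves and 1382, 1447 and 1190.2 in roots (log2 difference -6.16, SE 0.19, adjusted p = 2.53e-05), the largest difference of the list. Leaf arrays were dim for both genes, and the root array of week 1 was several times the others for IRT1 but not for F6'H1.

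The metal transporters that work beside IRT1 were higher in roots too. NRAMP1 (AT1G80830), a transporter of manganese and Fe, had 235, 64.8 and 115 in leaves and 1709, 725 and 624 in roots (log2 difference -2.75, SE 0.20, adjusted p = 0.000319). IREG2 (AT5G03570), which moves metals such as cobalt and nickel into root vacuoles, had 17.9, 9.4 and 9.92 in leaves and 619, 304 and 280.2 in roots (log2 difference -3.8, SE 0.19, adjusted p = 9.38e-05), and MTP3 (AT3G58810), which does the same for zinc, had 8.29, 10.6 and 9.79 in leaves and 309.7, 99.6 and 136 in roots (log2 difference -2.81, SE 0.33, adjusted p = 0.00162). For each of these the lowest root array was above the highest leaf array. HMA3 (AT4G30120), another vacuolar metal pump, differed by -0.93, a call lost under the shift by reference genes and without week 3. CYP82C4 (AT4G31940), a cytochrome P450 of coumarin synthesis, differed by -1.84 and was lost without week 3.

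Regulators of the response were less uniform. Of the 5 bHLH genes bHLH34, bHLH104, bHLH115, bHLH121 and ILR3, bHLH115 (AT1G51070) had 104, 171 and 163 in leaves and 557, 627 and 611 in roots (log2 difference -1.95, SE 0.16, adjusted p = 0.000429). bHLH104 (-0.60, adjusted p = 0.0133) and ILR3 (-0.61, adjusted p = 0.0347) were called, but not under the shift by reference genes nor without week 2 or week 3, and bHLH34 (0.22) and bHLH121 (-0.17) were not called. bHLH39 (AT3G56980), an early factor of the response, had 4.03, 4.31 and 0.333 in leaves and 61.1, 24.7 and 27.1 in roots (log2 difference -1.45, SE 0.21, adjusted p = 0.00365) and was not called over all 24 arrays. BHLH101 (-0.08), MYB10 (-0.40), MYB72 (-0.31) and PYE (0.08) were not called. BTS (AT3G18290), an E3 ligase that restrains the response, had 134, 78.7 and 67.0 in leaves and 114, 88.4 and 55.5 in roots (0.09, adjusted p = 0.675), while AT1G74770 (-3.12) and AT1G18910 (-2.15) were higher in roots.

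Several further members known to respond to Fe deficiency were not called at this supply. IRT2 (AT4G19680) had 0.237, 8.48 and 0.333 in leaves and 8.62, 9.21 and 6.38 in roots (-0.37, adjusted p = 0.0781), dim on all 6 arrays. BGLU42 (0.21), GRF11 (0.27), AT1G47400 (0.07) and AT3G12900 (-0.83, adjusted p = 0.221) were not called, the last with root signals of 128, 19.6 and 13.6. FRO3 (AT1G23020), a ferric reductase of mitochondria, was higher in roots with 97.1, 40.9 and 45.9 in leaves and 167, 83.2 and 95.2 in roots (log2 difference -0.78, SE 0.15, adjusted p = 0.00861), although arrays of different weeks overlapped between the organs. It was lost without the block, over all 24 arrays and without week 2 or week 3. The 2 members higher in leaves were OPT3, given above, and ORG1 (AT5G53450), a kinase-like protein, with 365, 293 and 356 in leaves and 88.0, 82.7 and 99.4 in roots (log2 difference 1.74, SE 0.13, adjusted p = 0.000362).

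Within the roots, week 1 differed for this list. Of the 24 members with a mean root signal of at least 16, the array of week 1 was the highest root array for 16 and the lowest for 2, against 42.0% and 41.0% of all such probe sets. The summed root signal of the list spanned 5255 to 8463, against 1895 to 2224 in leaves. Without week 1 the counts were again 2 higher in leaves and 14 higher in roots.

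**Figure D4:**
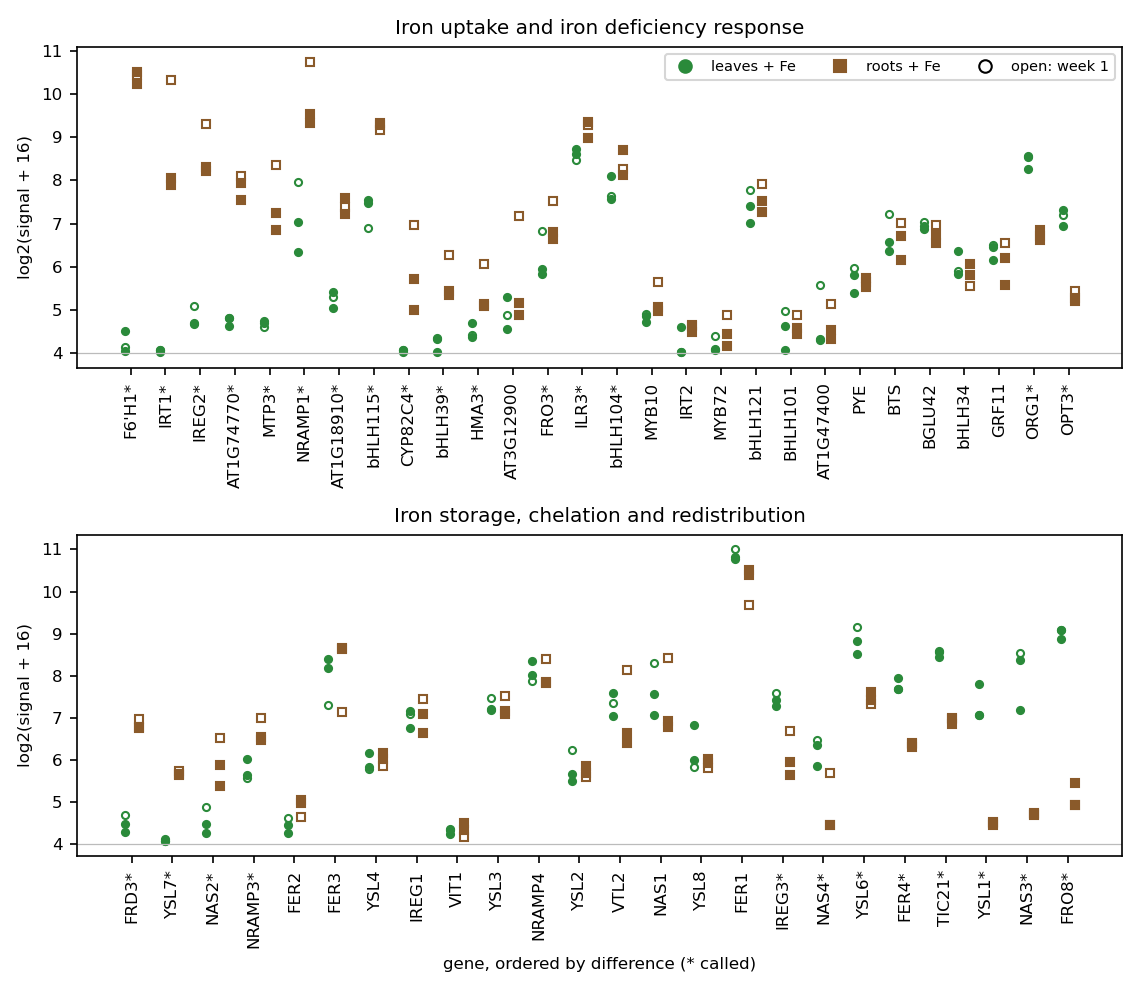
log2(signal + 16) on each of the 3 arrays of wild type leaves + Fe and the 3 arrays of wild type roots + Fe for every measured gene of Fe uptake and the Fe deficiency response (upper panel) and of Fe storage, chelation and redistribution (lower panel), ordered by difference, with week 1 as open symbols and called genes marked by an asterisk. FRO8 and NAS3 differ most in favour of leaves (3.91 and 3.32), and F6'H1 and IRT1 most in favour of roots (-6.16 and -4.69).

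Genes of Fe storage, chelation and redistribution went both ways. Of 24 measured, 8 were higher in leaves and 4 in roots (median 0.17), beside 18.7% and 23.7% of all probe sets. The 4 nicotianamine synthase genes, whose product chelates Fe, zinc and copper, had separate patterns. NAS3 (AT1G09240) had 355, 129.5 and 313 in leaves and 9.66, 10.7 and 10.0 in roots (log2 difference 3.32, SE 0.30, adjusted p = 0.000660), and NAS4 (AT1G56430) had 72.8, 41.5 and 65.7 in leaves and 35.3, 5.88 and 5.95 in roots (log2 difference 1.36, SE 0.25, adjusted p = 0.00851), a call lost without week 2 or week 3. NAS2 (AT5G56080) ran the other way, with 13.4, 3.22 and 6.39 in leaves and 76.2, 42.5 and 25.5 in roots (log2 difference -1.38, SE 0.22, adjusted p = 0.00442). NAS1 (AT5G04950) had 299, 117 and 174 in leaves and 326, 94.1 and 106 in roots (log2 difference 0.27, SE 0.18, adjusted p = 0.305), with overlapping arrays, and in both organs week 1 was the highest. Leaf and root arrays did not overlap for NAS2, NAS3 and NAS4.

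The YSL genes encode transporters of metals bound to nicotianamine. YSL1 (AT4G24120) had 118, 118 and 206 in leaves and 6.64, 7.0 and 6.03 in roots (log2 difference 2.82, SE 0.23, adjusted p = 0.000414), and YSL6 (AT3G27020), of the chloroplast membrane, had 553, 353 and 441 in leaves and 144, 181 and 155 in roots (log2 difference 1.38, SE 0.20, adjusted p = 0.00364). YSL7 (AT1G65730) was higher in roots, with 0.812, 1.28 and 0.904 in leaves and 37.5, 33.6 and 34.5 in roots (log2 difference -1.59, SE 0.13, adjusted p = 0.000498). YSL2 (0.08), YSL3 (0.03), YSL4 (-0.09) and YSL8 (0.30) were not called and their arrays overlapped between the organs.

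Among the ferritin genes, whose products store Fe in plastids, FER4 (AT2G40300) was higher in leaves, with 189, 231 and 188 in leaves and 69.0, 62.9 and 67.5 in roots (log2 difference 1.4, SE 0.15, adjusted p = 0.00118). FER1 (AT5G01600) had 2030.1, 1743 and 1788 in leaves and 808, 1439.9 and 1322 in roots (0.67, adjusted p = 0.0966) and FER3 (AT3G56090) had 142, 274 and 319 in leaves and 125, 386 and 379.9 in roots (-0.18, adjusted p = 0.441), neither of which passed the test, and FER2 was dim on all leaf arrays (-0.45). For FER1 every leaf array was above every root array, and the call was made under the shift by reference genes.

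FRO8, TIC21 and IREG3, whose products are placed in organelles, were higher in leaves, and the citrate transporter gene FRD3 was higher in roots. FRO8 (AT5G50160), a ferric reductase that has been placed in mitochondria, had 531, 450.2 and 523 in leaves and 14.6, 27.4 and 14.6 in roots (log2 difference 3.91, SE 0.20, adjusted p = 9.23e-05). TIC21 (AT2G15290), a chloroplast envelope protein also described as a permease for Fe, had 364, 369 and 332 in leaves and 109.7, 98.8 and 111 in roots (log2 difference 1.6, SE 0.14, adjusted p = 0.000516), and IREG3 (AT5G26820), a ferroportin of plastids, differed by 1.34. FRD3 (AT3G08040), whose product loads citrate into the root xylem, had 9.8, 3.5 and 6.27 in leaves and 109, 93.9 and 92.0 in roots (log2 difference -2.35, SE 0.17, adjusted p = 0.000308). The vacuolar exporter genes NRAMP3 (-0.94, adjusted p = 0.0203) and NRAMP4 (0.06, adjusted p = 0.849) differed in call, and NRAMP3 was lost without week 2. IREG1 (-0.06), VIT1 (-0.02) and VTL2 (0.26) were not called, and VIT1 was dim on all arrays.

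Of 33 genes of zinc, copper and manganese transport, 12 were higher in leaves and 9 in roots (median 0.22), beside 18.7% and 23.7% of all probe sets. Under the shift by reference genes, 16 were higher in leaves and 7 in roots (median 0.48). COPT1 (AT5G59030), a copper transporter, had 642, 286 and 489 in leaves and 26.5, 16.5 and 19.2 in roots (log2 difference 3.67, SE 0.19, adjusted p = 0.000103), and PAA1 (AT4G33520), the copper pump of the chloroplast envelope, differed by 1.48. ZIP7 (1.86), ZIP11 (1.81) and NRAMP6 (1.88) were higher in leaves as well. ZIP3 (AT2G32270), of the same family as IRT1, had 2.25, 5.77 and 18.4 in leaves and 194, 168 and 213 in roots (log2 difference -3.11, SE 0.21, adjusted p = 0.000234). HMA4 (AT2G19110), the pump that loads zinc into the xylem, had 75.2, 63.1 and 60.5 in leaves and 699.7, 419.6 and 371 in roots (log2 difference -2.59, SE 0.17, adjusted p = 0.000227), and HMA5 (AT1G63440), a copper pump of roots, differed by -2.58.

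Of 10 genes of superoxide dismutases and metallothioneins, 3 were higher in leaves and 1 in roots (median 0.35), a share called near the 42.4% of all probe sets. Under the shift by reference genes, 6 were higher in leaves and 1 in roots (median 0.61). FSD1 (AT4G25100), the Fe superoxide dismutase, had 1920.4, 976 and 1285 in leaves and 36.1, 186 and 248 in roots (log2 difference 3.27, SE 0.60, adjusted p = 0.00798), and CSD2 (AT2G28190), the copper and zinc enzyme of the chloroplast, had 943, 2251 and 1360.0 in leaves and 601, 560.0 and 543 in roots (log2 difference 1.3, SE 0.28, adjusted p = 0.0139), a call lost without week 2 or week 3. MT2A (AT3G09390), a metallothionein that binds copper, had 2608, 2112 and 1724 in leaves and 393, 48.7 and 79.7 in roots (log2 difference 3.97, SE 0.44, adjusted p = 0.00123). MT1C (AT1G07610) had 642, 165 and 394 in leaves and 5087, 3489 and 3865 in roots (log2 difference -3.49, SE 0.29, adjusted p = 0.000495). MT1A (AT1G07600) had 3904, 3117 and 4410.3 in leaves and the highest value of the common distribution, 7304, on all 3 root arrays. Its difference of -0.95 (adjusted p = 0.0592) is therefore limited by that ceiling, and it passed the test without week 1 and without the block, among other settings. MT3 (0.73) and MT2B (0.42) were bright in both organs and not called. CCS (-0.29, adjusted p = 0.450), AtMT4a (0.29) and AtMT4b (0.02) were not called either, and AtMT4a and AtMT4b were dim on all arrays of the comparison.

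Genes of cold and dehydration and of flavonoids had members higher in leaves and none in roots. Of 11 cold and dehydration genes, 6 were higher in leaves, beside 18.7% of all probe sets, and none was higher in roots (median 1.22). COR15B (AT2G42530), the neighbour and paralogue of COR15A, had 1393, 2575 and 1709 in leaves and 4.42, 10.0 and 3.67 in roots (log2 difference 6.4, SE 0.16, adjusted p = 1.94e-05), and COR413IM1 (AT1G29395), of the chloroplast inner envelope, had 1135, 2137 and 1719 in leaves and 9.66, 12.5 and 11.3 in roots (log2 difference 5.91, SE 0.18, adjusted p = 2.66e-05). With COR15A, the 3 largest differences of the list belonged to genes of chloroplast proteins. The others differed by at most 1.52, and XERICO had -0.68 (adjusted p = 0.0501). Without week 1, 8 were higher in leaves and 1 in roots.

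Of 7 flavonoid genes, 5 were higher in leaves and none in roots (median 1.78). The glycosyltransferase genes UGT78D1 (AT1G30530) and UGT78D2 (AT5G17050) differed by 3.02 and 1.78, and the anthocyanin genes UF3GT (AT5G54060) and DFR (AT5G42800), a dihydroflavonol reductase, by 2.32 and 2.28. DFR had 71.1, 191 and 59.9 in leaves and 8.36, 6.26 and 5.77 in roots, with week 2 the highest leaf array. Of 20 genes of defence, salicylate and jasmonate, 6 were higher in leaves and 3 in roots (median 0.41), a share called near the 42.4% of all probe sets. Under the shift by reference genes, 13 were higher in leaves and 3 in roots (median 0.67). Among those higher in leaves were ORA47 (AT1G74930), a factor of jasmonate synthesis, with 461, 157 and 36.6 in leaves and 10.9, 9.78 and 5.39 in roots (log2 difference 2.73, SE 0.52, adjusted p = 0.00922), and OPCL1 (AT1G20510), an enzyme of jasmonate synthesis, with 2.21. ALPHA-VPE (-1.2), PR-1-LIKE (-1.24) and the kinase gene BIK1 (-0.84) were higher in roots, the last 2 not without week 2.

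Of 20 genes of DNA replication and cell division, 1 was higher in leaves and 15 were higher in roots (median -0.80), and 10 were dim on all leaf arrays. Under the shift by reference genes, 1 was higher in leaves and 10 in roots (median -0.54). CDKB1;2 (AT2G38620), a kinase of the entry into mitosis, had 1.32, 4.0 and 3.42 in leaves and 23.7, 55.1 and 65.0 in roots (log2 difference -1.7, SE 0.21, adjusted p = 0.00206). AUR1 (AT4G32830) and AUR2, Aurora kinases of the spindle, differed by -1.4 and -1.31, MYB3R-4 (AT5G11510), a factor of mitotic genes, by -1.23, and FU (AT1G50240), a kinase of cytokinesis, by -1.32. TK1a (AT3G07800), a thymidine kinase, ran the other way with 133, 135 and 125 in leaves and 89.3, 101 and 84.8 in roots (log2 difference 0.45, SE 0.14, adjusted p = 0.0452), and lost its call without any 1 of the 3 weeks. The root array of week 1 was the lowest root array for 14 of the 18 members with a mean root signal of at least 16, against 41.0% of all such probe sets. Without week 1 the counts were 0 higher in leaves and 14 higher in roots.

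The organ difference was then read in the other 3 conditions, each with 6 arrays of its own. In them 40.7%, 44.9% and 40.3% of all probe sets were called in either direction, in wild type - Fe, nas4x-1 + Fe and nas4x-1 - Fe in this order. Of the 4255 probe sets higher in leaves in wild type + Fe, 3460 (81.3%) were also called higher in leaves in wild type - Fe, where 18.3% of all probe sets were, 3655 (85.9%) in nas4x-1 + Fe, where 19.5% were, and 3330 (78.3%) in nas4x-1 - Fe, where 17.6% were. Of the 5395 higher in roots, 4292 (79.6%), 4766 (88.3%) and 4187 (77.6%) were also called higher in roots, where 22.3%, 25.4% and 22.7% of all probe sets were. Calls held in all 4 conditions for 3051 probe sets higher in leaves and 3646 higher in roots. Of the calls made in those conditions, between 80.9% and 84.5% were also calls of the same direction in wild type + Fe. The opposite call was made in at least 1 other condition for 26 probe sets.

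By list, the medians of nuclear photosystem, ER body and root growth genes stayed near those of wild type + Fe. Nuclear photosystem genes had medians of 4.84 in wild type - Fe, 5.01 in nas4x-1 + Fe and 5.04 in nas4x-1 - Fe beside 4.82, ER body and jacalin genes -5.01, -5.33 and -4.96 beside -4.95, and root growth genes -1.24, -1.30 and -1.25 beside -1.23. Fe uptake genes leaned further to roots, with medians of -1.60, -1.45 and -2.13 beside -0.60. DNA replication and cell division genes had 0.26 in wild type - Fe, and -0.69 and -0.50 in nas4x-1, beside -0.80. Other lists moved too, given here in the same order of conditions. Cold and dehydration genes had 0.77, 1.28 and 0.19 beside 1.22, and flavonoid genes 1.46, 0.62 and 1.60 beside 1.78. The median of zinc, copper and manganese transport genes was 0.11, -0.03 and -0.49 beside 0.22. These medians are descriptions, and differences between conditions were tested only for single probe sets.

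Of the Fe uptake genes, 6 lay above the list's median of -0.60 in wild type + Fe and below it in wild type - Fe. In wild type - Fe, IRT2 had -2.66 beside -0.37, MYB72 -2.28 beside -0.31, MYB10 -1.41 beside -0.40 and BHLH101 -0.79 beside -0.08. BGLU42 had -1.69 beside 0.21 and GRF11 -1.36 beside 0.27, while FRO3 moved across it the other way with 0.14 beside -0.78. Further members moved towards leaves without crossing that median. Among them, AT1G47400 had 1.93 beside 0.07, BTS 1.27 beside 0.09 and PYE 0.67 beside 0.08. IRT1 had differences of -6.5, -5.98 and -6.84 in wild type - Fe, nas4x-1 + Fe and nas4x-1 - Fe beside -4.69, and AT3G12900 had -3.96, -3.34 and -5.93 beside -0.83. NAS3, which carries an insertion in nas4x-1, had 1.21, 1.17 and 0.37 beside 3.32, FER1 had -1.24, 1.51 and -1.13 beside 0.67, and FSD1 had 0.30, 5.35 and 0.33 beside 3.27. F6'H1, in contrast, had -5.13, -5.63 and -6.18 beside -6.16, and FRO8 had 3.54, 3.75 and 3.54 beside 3.91. The limma test of the difference between wild type - Fe and wild type + Fe was passed by IRT2 alone of these genes (adjusted p = 0.0365). That call is taken up below with its limits. All others named in this paragraph did not pass. Their adjusted p was 0.559 for IRT1, 0.0924 for NAS3, 0.485 for FER1, 0.0727 for GRF11, 0.254 for FSD1 and 0.306 for AT3G12900. It was 0.648 for MYB72, 0.546 for BGLU42, 0.382 for MYB10, 0.953 for BHLH101 and 0.829 for FRO3.

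**Figure D5:**
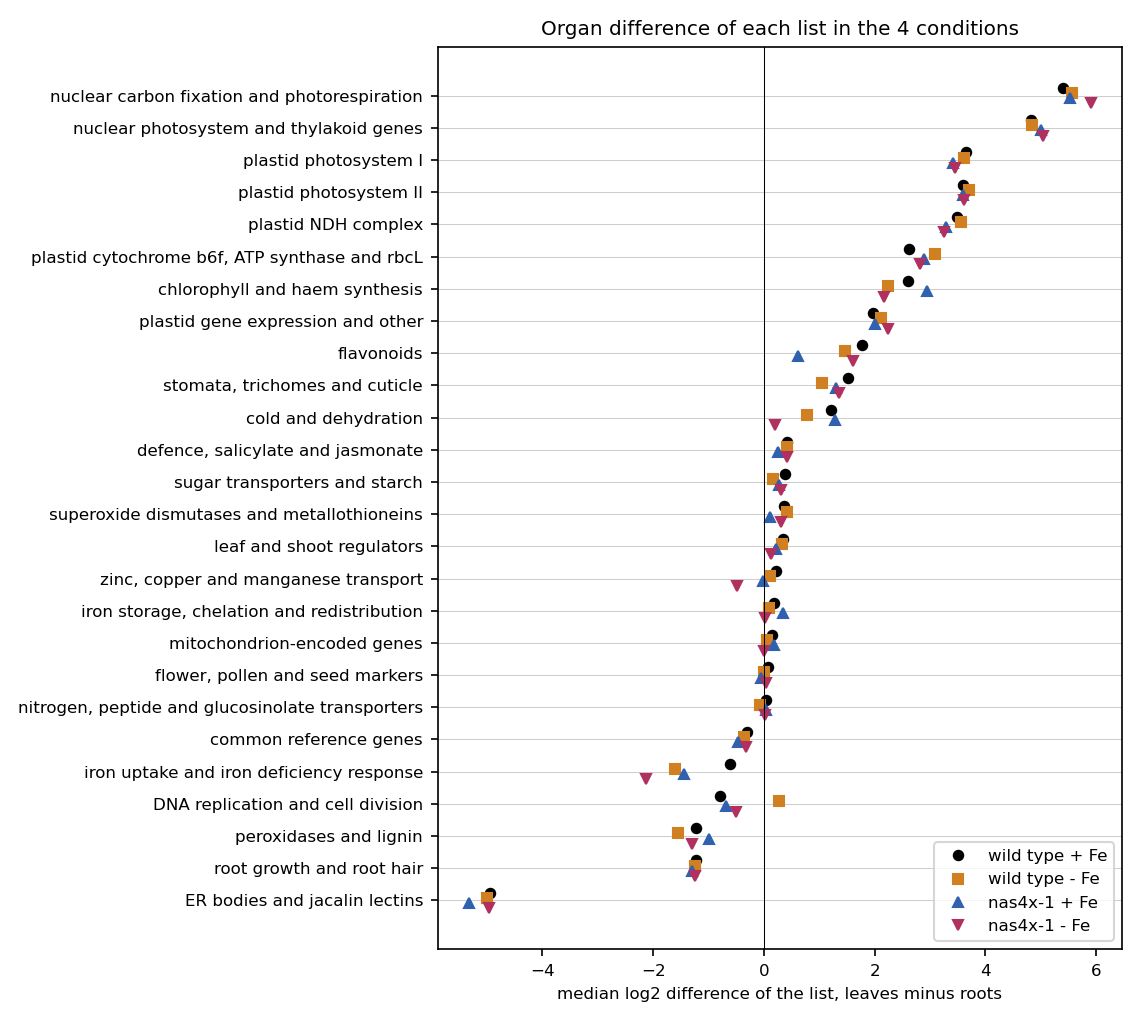
Median log2 difference, leaves minus roots, of each gene list (1 line per list) in wild type + Fe and in the other 3 conditions, each from 6 arrays of its own. The medians of the nuclear photosystem and root growth lists lie close together. Those of Fe uptake lie between -0.60 in wild type + Fe and -2.13 in nas4x-1 - Fe. That of DNA replication and cell division is above 0 in wild type - Fe alone (0.26).

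Some probe sets had levels that traded places with another probe set in whole groups of arrays, and 7 of the calls belong to such pairs. Besides PSAG, higher in leaves were SYP122 (2.56), AT3G14100 (3.0), AT2G21920 (3.11) and NUDX13 (1.74), and higher in roots were AT1G32760 (-3.57) and FRS12 (-3.26). SYP122 (AT3G52400), a syntaxin, had 172, 149 and 85.0 in leaves and 12.5, 5.59 and 8.62 in roots, while AT1G32760 had 1.47, 3.33 and 5.89 in leaves and 284, 239 and 146 in roots. None of these 6 had its direction at like size in any other condition, where for SYP122 the differences were -0.21, -0.41 and -0.42 and for AT1G32760 -0.35, -0.22 and -0.04. The photosystem I gene PSAG (AT1G55670), with 4659, 4659 and 5177 in leaves and 33.0, 56.1 and 89.1 in roots here (6.07), traded places in wild type - Fe, where its difference was 1.13. These levels are given as measured, and which name belongs to which level was not tested.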

How the data were processed

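RNA of leaves and roots was hybridized to Affymetrix ATH1 arrays, 1 array per sample. The authors determined signal intensity with MAS 5.1 and GCOS, scaled each array to a common target and applied quantile normalization over all 24 arrays, and the deposited intensity values are on a linear scale. No detection calls and no depth were used, and the number of arrays limits the precision. Of 22810 probe sets, 64 controls were left out. A gene was named from the platform annotation (13513 probe sets) or from the gene columns of the supplementary tables of the study (193), 506 probe sets had several genes and 8534 none. Where a gene had several probe sets, that with the highest mean signal was used.

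An offset of 16 was added before log2, and leaves minus roots was tested with limma 3.58.1 in R 4.3.3 (moderated test with an intensity trend, two-sided, Benjamini-Hochberg adjustment over 22746 probe sets, threshold 0.05). Week was a block, since the experiment was run in 3 consecutive weeks. Deviations of leaf and root arrays of the same week correlated with r of 0.220, 0.227 and 0.171, and those of different weeks between -0.190 and 0.071. The other conditions were fitted in the same way, and the change of the organ difference between wild type - Fe and wild type + Fe over all 24 arrays. In simulated data, 0, 12, 41 and 40 of 50 probe sets each with differences of 0.5, 1, 2 and 3 were recovered, with 1 false call. Only these probe sets were changed there, a far smaller share than the 42.4% called in the data. The Benjamini-Hochberg adjustment was therefore stricter in the simulation, and its recovery does not give that of this comparison.

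The comparison and the gene lists were chosen with earlier results of these data known, and the lists were completed and regrouped from the annotation after it was read, without regard to values. Of 576 planned entries 145 were measured, the planned ferredoxin list was not used, and 137 of the 435 entries of the lists described are planned genes, so that most were added later. In all, 26 lists and 23 families were described; 1 further family is not reported here. Named were the 12 largest differences in each direction that ran the same way in all weeks, up to 5 called members of a list in its main direction and up to 3 in the other, all members of the Fe, metallothionein and reference lists, and up to 2 of a family in each direction. ATPC1, CURT1A, CURT1C, CURT1D, GSA1, GSO1, HEMA2, HEMA3, HEMB1, LPR1, UFO, UPB1, XERICO, ndhF and the genes of the pairs that traded places were named after their values were seen. Such a pair was recorded where 2 probe sets of an organ shifted opposite ways between groups, each by 3 or more on the log2 scale, and took over each other's levels. Alternatives were other offsets, scalings, filters, error variances, sets of arrays and the fit without the block.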

Additional observations from a re-analysis of the deposited data

Results flagged for a closer look

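Among the named genes, the organ difference of 3 differed between wild type - Fe and wild type + Fe in the test of that change over all 24 arrays (limma with Benjamini-Hochberg adjustment). For FU, the kinase of cytokinesis, leaves minus roots was 0.95 in wild type - Fe and -1.32 in wild type + Fe, a change of 2.27 (adjusted p = 0.0376). TK1a, the thymidine kinase, had 2.31 and 0.45, a change of 1.85 (adjusted p = 0.0124). IRT2, a relative of IRT1, had -2.66 and -0.37, a change of -2.29 (adjusted p = 0.0365), and was dim on all 6 arrays of wild type + Fe. In all, 21 probe sets passed this test, of which 10 belong to pairs of probe sets whose levels traded places between groups. When those pairs were left out, no probe set passed, so that the calls of FU, TK1a and IRT2 rest on the presence of these pairs in the adjustment.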

How the results depend on the processing

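Named genes gave 3460 values over 13 alternatives, of which 3280 kept direction and call, 158 lost the call, 22 gained it and 0 reversed. With each array shifted by the reference genes, 8450 probe sets were higher in leaves (4008 in roots), and 6909, 7005 and 6949 of them also in wild type - Fe, nas4x-1 + Fe and nas4x-1 - Fe. The family medians of endoglucanases GH9 (0.20), bZIP factors (0.0825) and UBP (0.13) changed sign then. With the error variance rule of the study methods, and without the week block, 1810 were higher in leaves and 1493 in roots. These were shared with the same 3 conditions for 1565, 1710 and 1566 in leaves and 1112, 1404 and 1128 in roots. Of 234 named calls, 76 were lost (adjusted p up to 0.376). Leaving out 1 week gave 2902 to 4685 higher in leaves and 3114 to 5954 in roots, with 2458 to 3631, 2613 to 3919 and 2471 to 3427 shared in leaves and 2352 to 4584, 2791 to 5060 and 2481 to 4084 in roots. Named calls were lost for 3 genes without week 1, for 30 without week 2 and for 29 without week 3. Without the replicate block, 4158 were higher in leaves and 5141 in roots, and NRT2.5, FRO3, BZIP61 and bHLH104 lost their calls. The change of the organ difference with Fe supply was called for 0 probe sets without the traded pairs. The other settings left the counts within 1.5 times. Limits are 3 arrays an organ, the common distribution of all arrays, its ceiling, no detection calls, week 1 arrays that stand apart in both organs, and 8534 probe sets without a gene name here. Cells of different types were not separated. The causes of these shifts were not tested.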

Other observations

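Several gene families had members higher in leaves and members higher in roots, beside 18.7% and 23.7% of all probe sets. Some genes of the families, such as PYK10, XTH19 and EXPA18, are also in the lists above and are counted again here. Of 9 germin-like proteins, 2 were higher in leaves and 5 in roots (median -1.10). GER1 (AT1G72610) had 1608, 2892 and 3040.4 in leaves and 19.5, 16.1 and 14.4 in roots (log2 difference 6.22, SE 0.25, adjusted p = 4.83e-05), while GLP9 (AT4G14630) had 3.3, 8.14 and 0.438 in leaves and 1516, 935 and 830.5 in roots (log2 difference -5.77, SE 0.22, adjusted p = 4.14e-05). Both were among the widest differences of the array, in opposite directions, and GER3 (3.66) and GLP4 (-2.93) ran the same way as their namesakes, GER3 not without week 3. Of 49 UDP-glycosyltransferases, 16 were higher in leaves and 10 in roots (median 0.20), among them UGT88A1 (4.18) and UGT84A3 (3.64) in leaves and UGT71C1 (-5.28) and UGT76B1 (-3.49) in roots. Under the shift by reference genes, 27 were higher in leaves and 9 in roots (median 0.46). Of 21 beta-glucosidases, 4 were higher in leaves, with BGLU44 (4.21) and BGLU33 (3.5) ahead, and 3 in roots, PYK10 and BGLU15 (-3.2) with the largest differences, and under the same shift 11 were higher in leaves and 3 in roots. Glutathione transferases of the GSTU class counted 3 in leaves, among them GSTU16 (3.49) and GSTU20 (3.28), and 5 in roots, among them GSTU28 (-3.73) and GSTU22 (-2.08).

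Cell wall families had more calls in roots than in leaves, as had all probe sets together (23.7% and 18.7%). For endoglucanases this was reversed under the shift by reference genes, and their share called lay below the 42.4% of all probe sets. Of 9 xyloglucan endotransglucosylases, 1, XTH32 (2.29), was higher in leaves and 7 in roots, and of 18 expansins 2 were higher in leaves, namely EXPA8 (2.86) and EXPA16, and 9 in roots. EXPA16 was lost without week 2 or week 3. Of 15 endoglucanases, none was higher in leaves and 5 were higher in roots, led by GH9B13 (-3.99) and GH9C1 (-2.6), and of 22 TRICHOME BIREFRINGENCE-LIKE proteins, which acetylate wall polysaccharides, 3 were higher in leaves, with TBL26 (3.37) ahead, and 9 in roots, with TBL36 (-3.64) and TBL39 (-3.09) ahead. The root array of week 1 was the lowest root array for 7 of 8, 7 of 11, 6 of 6 and 13 of 16 members of these families with a mean root signal of at least 16, and its part in these counts was not tested. Without week 1 the members higher in roots numbered 7, 11, 7 and 10. Under the shift by reference genes, 4 endoglucanases were higher in leaves and 2 in roots, and the numbers were 2 and 7 for xyloglucan endotransglucosylases, 5 and 9 for expansins and 5 and 7 for the TRICHOME BIREFRINGENCE-LIKE proteins. The subtilase gene SBT4.12 (AT5G59090) had 3.3, 0.592 and 5.06 in leaves and 1011, 516 and 551 in roots (log2 difference -5.16, SE 0.22, adjusted p = 5.93e-05).

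Of 13 organelle factors of the OTP and CRR groups, which edit or process organelle RNA or assemble chloroplast complexes, 8 were higher in leaves and none in roots (median 0.57), and all 13 were dim on the root arrays. CRR42 (3.25) and CRR21 (1.96) differed most. Beside this count and those that follow, 18.7% of all probe sets were higher in leaves and 23.7% in roots. Of 8 glutamate receptor-like channels 3 were higher in leaves, with GLR2.7 (2.34) and GLR3.5 (1.48) ahead, and none in roots. This share called was near the 42.4% of all probe sets. Under the shift by reference genes, 5 channels were higher in leaves and none in roots. Among the RALF-like peptides, small signals of cell growth, RALFL34 (1.24) was higher in leaves and RALFL32 (-3.64) and RALFL22 (-3.03) in roots. Of 9 U-box ligases, 3 were higher in leaves, among them PUB19 (2.84), and 2 in roots, PUB22 (-2.43) and PUB23 (-2.13), and under that shift 5 and 2. The beta-tubulin genes TUB1 (-2.15) and TUB7 (-1.75) were higher in roots, and week 1 was the lowest array in both organs for all 5 beta-tubulins.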
